A study of Xenopus laevis with 12 samples.

Results

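A group of 235 genes was lower in tadpole brains after exposure to the amniotic mixture and stayed close to the control after exposure to T4. The genes were chosen by a rule on their own values. Read counts were turned into CPM, counts scaled so that the gene reads of every sample sum to the same total, and into log2(CPM + 0.5). The difference of an exposure was the mean of this value over its 4 samples minus the mean over the 4 control samples. A gene belonged to the group if its mean in the control was at least 5 CPM, its difference after the mixture was at most −0.4, all 4 mixture samples lay below all 4 control samples, and its difference after T4 was under 0.2 in either direction. Of the 51041 genes listed, 20971 had at least 5 CPM in the control, and 235 of these met every condition. The levels in control, mixture and T4 samples therefore chose the genes, and these levels are described below without a test.

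Thyroid hormones bind nuclear receptors that switch genes on or off, and in amphibians they drive metamorphosis and much of brain development. T4 is the form that circulates most, and cells convert it to the more active T3. The amniotic mixture combines phenols, phthalates, pesticides, metals and other pollutants found in human amniotic fluid, several of which are suspected to disturb thyroid signaling. In the deposited tables each gene has only a number, and 0 of the 51041 numbers were found in the reference table of *Xenopus laevis* genes. For that reason no function can be given to any of the genes, the brain label could not be checked against markers of cell types, and no sequence is shown. The only genes given by number are the one with the strongest fall and the one with the highest level in the control.

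Brains were taken at stage NF 47 after 8 days of exposure from the egg onwards, and each sample was a pool of 2 brains. The 4 control samples (samples 1 to 4) received the solvent DMSO at 0.01%, which was also present in both exposed groups. The 4 mixture samples (5 to 8) were exposed to 15 chemicals at the 1x concentration, and the 4 T4 samples (9 to 12) to 10 nM T4. The study worked with breedings at different time points, and the labels do not say which sample came from which. The samples were taken as 2 sets of 6, told apart by component 2 of a PCA of all genes: set 1 (samples 1, 2, 5, 6, 9 and 10) scored from 12.9 to 15.7 and set 2 from −15.6 to −12.97, with 2 samples of each group in each set. That the sets are the breedings was not tested.

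Gene reads ranged from 10420292 to 11685566 over the 12 samples. Reads that fell outside genes were between 15.4% and 16.1% of all reads in the control, between 15.3% and 16.2% after the mixture and between 13.9% and 14.8% after T4. The lowest count of any of the 235 genes in any sample was 22, well over a floor of 3 counts, which was at most 0.288 CPM. The control tables carry a name that lists the trimming of the read start once more than the tables of both exposed groups. The part of this step in the differences from the control was not tested.

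The fall after the mixture was moderate and the values after T4 lay around the control values. The median gene of the group had 17.9 CPM in the control (from 5.07 to 82.6 over the 235 genes), 12.1 CPM after the mixture (from 2.75 to 57.2) and 17.5 CPM after T4 (from 4.35 to 90.8). The differences after the mixture ran from −1.16 to −0.40 with a median of −0.50 on the log2(CPM + 0.5) scale, a ratio of 0.708. They were between −0.59 and −0.44 between the quartiles of the genes. Of the 235 genes, 1 had a difference of −1 or lower, where 28 of all 20971 genes did (0.134%). A difference of −0.7 or lower was found in 28 of the 235, where 139 of all 20971 genes had one (0.663%), and 119 of the 235 lay between −0.5 and −0.4. The differences after T4 ran from −0.20 to 0.20 with a median of −0.01, above 0 in 113 genes and below 0 in 122. Over all 20971 genes the medians were −0.02 after the mixture and −0.04 after T4. In RNA from whole brains, fewer cells of a type and less RNA per cell cannot be told apart.

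**Figure D1:**
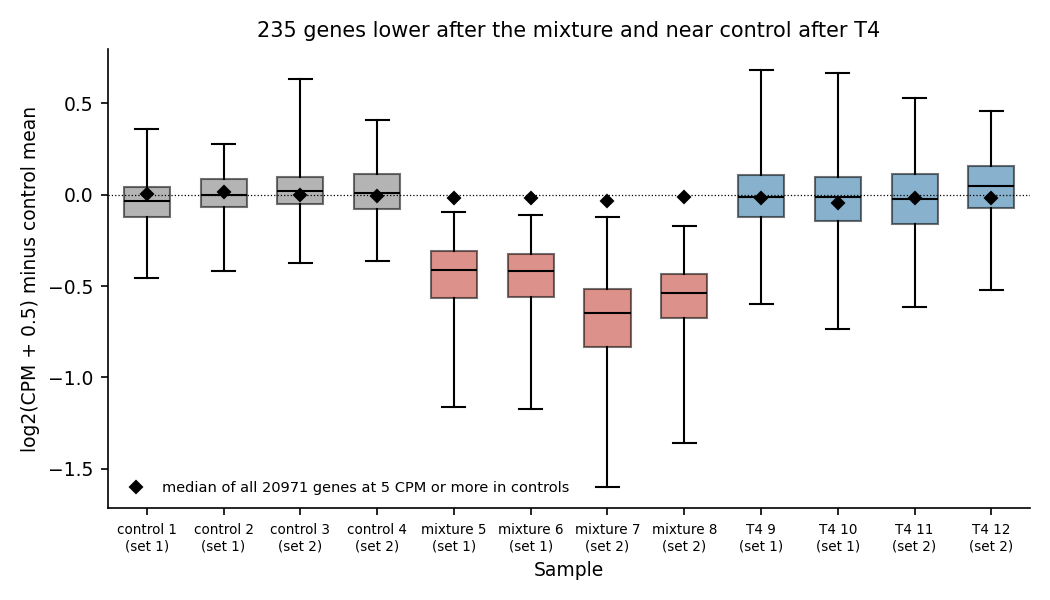
Differences of the 235 genes from their control mean in each of the 12 samples, as log2(CPM + 0.5), with boxes from the first to the last quartile, a line for the median and whiskers to the lowest and highest gene. Diamonds mark the median of all 20971 genes, which stays between −0.04 and 0.01, while the median of the 235 genes is −0.41, −0.42, −0.65 and −0.54 in mixture samples 5 to 8.

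Sample by sample, the mean difference of the 235 genes from their control mean was −0.04, −0.0016, 0.03 and 0.01 in control samples 1 to 4. It was −0.45, −0.45, −0.69 and −0.57 in mixture samples 5 to 8. It was −0.02, −0.03, −0.02 and 0.04 in T4 samples 9 to 12. The mixture samples thus lay apart from the others, with sample 7 the lowest, and the means of the T4 samples overlapped with those of the control samples. Together, the genes took 0.453% to 0.473% of the reads on genes in the control, 0.291% to 0.347% after the mixture and 0.462% to 0.482% after T4. Sample 7 gave the lowest mixture value in 129 of the 235 genes, sample 8 in 51, sample 5 in 33 and sample 6 in 22. The same count was not made over all genes, so it only describes the 235. Over all 20971 genes, sample 7 also had the lowest median of the mixture samples, −0.037, against −0.021 to −0.014 in the others.

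Gene gene11819 had the strongest fall. Its levels were 8.57, 9.28, 8.94 and 10.9 CPM in control samples 1 to 4 and 4.03, 4.91, 3.44 and 3.42 CPM in mixture samples 5 to 8. In T4 samples 9 to 12 they were 10.4, 8.67, 6.22 and 11.4 CPM. Every mixture sample lay below every control and T4 sample, and T4 sample 11 lay below the control range. The means were 9.42 ± 1.03 CPM in the control, 3.95 ± 0.702 CPM after the mixture and 9.15 ± 2.25 CPM after T4 (SD, n = 4 samples). The log2 fold change in the edgeR fit of all samples was −1.22 (standard error 0.20) after the mixture and −0.0048 (standard error 0.19) after T4. Behind these levels stood 37 to 53 counts per mixture sample and 94 to 116 per control sample. The gap between the lowest control and the highest mixture sample, 0.75 on the log2 scale, was the widest of the group.

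Gene gene3822 had the highest level in the control. It had 81.4, 93.5, 74.2 and 81.5 CPM in control samples 1 to 4, 70.0, 66.7, 46.0 and 46.0 CPM in mixture samples 5 to 8, and 101.3, 94.4, 92.0 and 75.5 CPM in T4 samples 9 to 12. The lowest control sample, at 74.2 CPM, belongs to set 2. The mixture samples of set 1, at 70.0 and 66.7 CPM, lay closer under it than those of set 2. The control samples of set 1 had 81.4 and 93.5 CPM. Group means were 82.6 ± 8.02 CPM in the control, 57.2 ± 12.95 CPM after the mixture and 90.8 ± 10.96 CPM after T4 (SD, 4 samples each). In the edgeR fit the log2 fold change was −0.50 (standard error 0.14) after the mixture and 0.18 (standard error 0.14) after T4. After the mixture its adjusted p was 0.117 (edgeR), so that it was not called, and it was called in 3 of 19 alternatives (adjusted p from 6.22e-06 to 0.279). The lowest came from DESeq2 after removal of component 2, which is not counted as a fitted term, so it may be too small. Gene3822 was also lower in set 2 than in set 1, by a log2 difference of −0.31 (standard error 0.07), with a Benjamini-Hochberg adjusted p of 0.00887 in the edgeR fit. That value averages over the 3 groups, and the PCA that told the sets apart included this gene. On the log2(CPM + 0.5) scale, set 2 minus set 1 was −0.17 in the control and −0.23 after T4. The difference of the mixture from the control was −0.35 in set 1 and −0.75 in set 2.

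**Figure D2:**
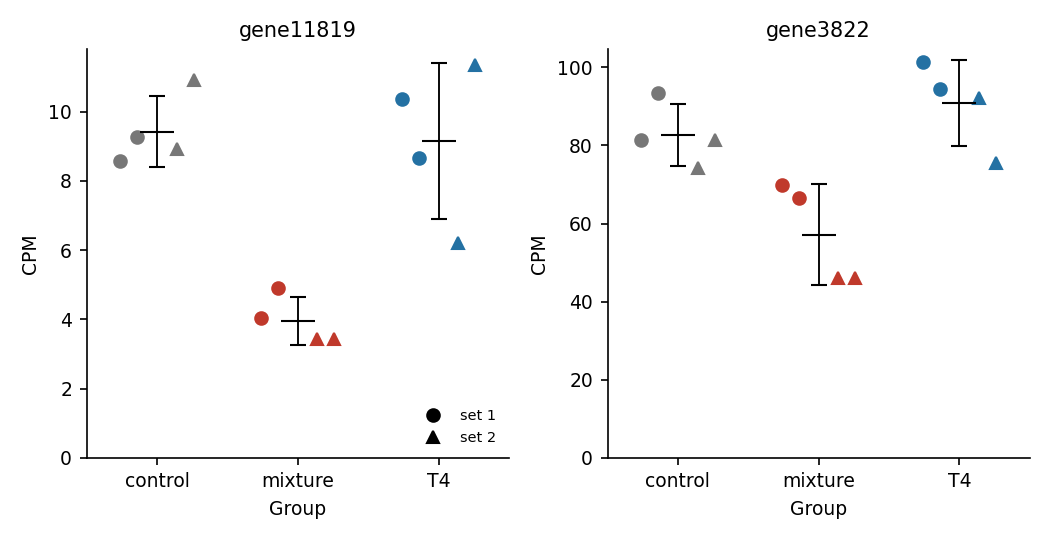
Levels of gene11819 and gene3822 in CPM in the 12 samples by group, with circles for set 1, triangles for set 2, and a line with bars for the group mean and SD. The mixture values of gene11819 lie between 3.42 and 4.91 CPM, and those of gene3822 near 46.0 CPM in set 2 and at 66.7 and 70.0 CPM in set 1.

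The gene with the second strongest fall had 10.0, 11.0, 13.5 and 14.1 CPM in control samples 1 to 4, 5.66, 6.68, 5.66 and 5.31 CPM in mixture samples 5 to 8, and 11.0, 10.7, 12.9 and 14.1 CPM in T4 samples 9 to 12. Control and T4 values both rose from set 1 to set 2 and the mixture values did not. Among the 28 genes with a difference of −0.7 or lower, control means ran from 5.15 to 35.3 CPM, mixture means from 2.75 to 20.8 CPM and T4 means from 4.75 to 40.6 CPM. In 24 of these 28 genes every T4 sample was higher than every mixture sample (21.9% of all 20971 genes), and in 25 the difference after the mixture was −0.4 or lower within each set (1.96%). These genes were picked by the same values, so the counts only describe them.

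Among the genes that met the minimum level in the control, lower genes outnumbered higher ones under mirrored limits of the difference. That minimum was set on the control mean only. Genes that rose from under it were left out, while genes that fell under it were kept. The part of this minimum in the excess of lower genes was not tested. Of the 20971 genes, 967 had a difference after the mixture of −0.4 or lower and 183 had one of 0.4 or higher. Without overlap between mixture and control samples these were 571 and 23. With T4 near the control they were 235 and 11, so that the mirror image of the rule gave 11 genes. Among the 571 lower genes, 133 had a difference after T4 of 0.2 or more, 203 had one of −0.2 or less, and the 235 lay in between. A drop of all mixture samples below all control samples, of any size, occurred in 8.97% of the 20971 genes. With CPM scaled by TMM in place of the plain sum of reads, the rule gave 173 genes and its mirror image 16, and 157 of the 173 belonged to the 235.

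The limits of the rule cut through values that lay close together. The weakest differences after the mixture inside the limit were −0.4002, −0.4009 and −0.4011, and the strongest outside it were −0.3978, −0.3978 and −0.3977. For T4, −0.1996, −0.1992 and −0.1989 were inside, and −0.2001, 0.2024 and −0.2024 were outside. The lowest control means inside were 5.07, 5.08 and 5.15 CPM, and the highest outside were 4.95, 4.92 and 4.82 CPM. The gap between the lowest control and the highest mixture sample was under 0.05 on the log2 scale in 34 of the 235 genes and over 0.2 in 102. Of all 20971 genes, 3.41% had a gap above 0 and under 0.05, and 1.20% had one over 0.2. Another 128 genes met every other condition and had mixture and control samples that overlapped.

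**Figure D3:**
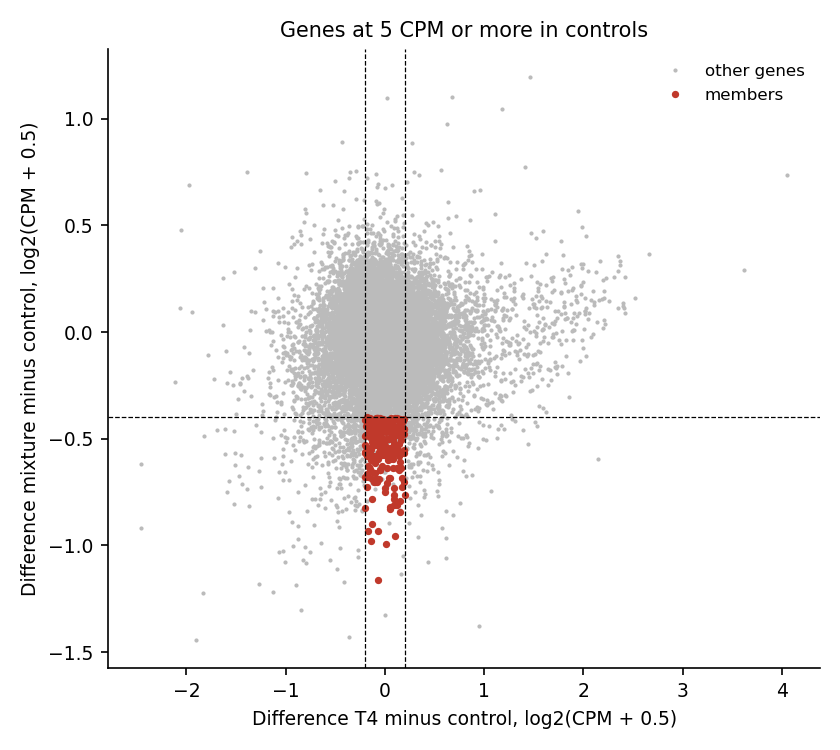
Difference after the mixture against difference after T4 for the 20971 genes with at least 5 CPM in the control, both on the log2(CPM + 0.5) scale, with the 235 genes of the rule in red. Dashed lines mark the limits at −0.4 for the mixture and at −0.2 and 0.2 for T4. Grey points inside the limits are genes whose mixture and control samples overlap.

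The genes were of low to middle level. Members made up 1.48% of the genes with a control mean from 5 to 10 CPM (46 of 3098), 2.43% of those from 10 to 20 CPM (98 of 4040) and 1.44% of those from 20 to 40 CPM (78 of 5419). From 40 to 80 CPM they made up 0.227% (12 of 5278), and over 80 CPM 0.0319% (1 of 3136). The median level in the control was 17.9 CPM for the 235 genes and 31.3 CPM for all 20971. The spread between control samples also fell with level, from a median SD of 0.24 (log2) in the lowest range to 0.09 in the highest, and its part in the share of members was not tested. The spread between T4 samples, which the rule did not limit directly, had a median SD of 0.13 (log2) in the 235 genes and 0.13 in all 20971. Within ranges of level the medians differed. From 5 to 10 CPM they were 0.23 in members and 0.23 in all genes. From 10 to 20 CPM they were 0.14 and 0.17, and from 20 to 40 CPM 0.10 and 0.13.

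**Figure D4:**
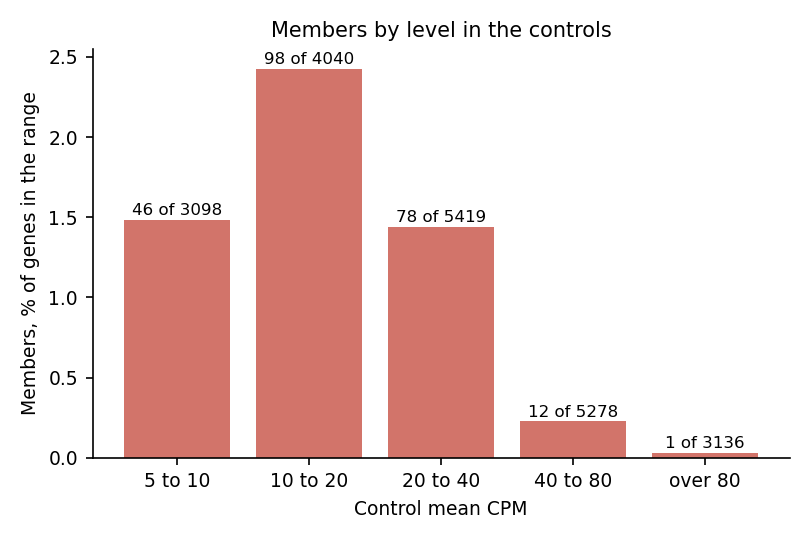
Share of the genes in each range of control mean CPM that belong to the 235, in percent, with the numbers of genes above the bars. The share is highest from 10 to 20 CPM, at 2.43%, and is 0.0319% over 80 CPM.

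The genes were also read in a fit across all genes. All 235 were among the 27141 genes that passed edgeR's filter on low counts. In the quasi-likelihood test of all 12 samples, with an adjusted p-value under 0.05, 55 of the 235 were DEGs lower after the mixture than in the control, where 0.479% of the genes tested were. This contrast chose the genes, so the count describes them. The 55 had a median control level of 23.1 CPM and a median difference of −0.57, and the other 180 had 16.3 CPM and −0.48. The count fell when any 1 sample was left out, as did the 130 genes called lower among all tested. Leaving out control sample 1, 2, 3 or 4 left 21, 2, 1 or 2 DEGs (38, 6, 3 or 6 of all genes). Leaving out mixture sample 5, 6, 7 or 8 left 42, 24, 0 or 1 (85, 56, 2 or 3). Leaving out T4 sample 9, 10, 11 or 12 left 26, 24, 30 or 27 (58, 50, 71 or 58). In these fits the median log2 fold change of the 235 stayed between −0.52 and −0.46. Of the 235, 223 to 233 were lower at an unadjusted p-value under 0.05 in edgeR's quasi-likelihood test. The rule favours low p-values here and the same count was not made over all genes, so it only describes the 235. DESeq2 called 155 (2.17% of the genes tested), edgeR with the set as a factor 148 (1.91%), and DESeq2 after removal of component 2 called 208 (4.64%). Each of these 3 lists held all 55. DESeq2 did not count the removal of component 2 as a fitted term, so the p-values behind the 208 may be too small.

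After T4, 0 of the 235 genes were DEGs (edgeR's quasi-likelihood test), where 24.3% of the genes tested were. DESeq2 also gave 0 (24.4% of its genes tested), and 9 of the 235 had an unadjusted p-value under 0.05 in edgeR (36.4%), all 9 higher than the control. The rule chose genes near the control, and the precision of the data limits how near they can be said to be. The 95% confidence interval of the log2 fold change after T4 reached a median of 0.26 to either side of the estimate, from 0.15 to 0.60 over the genes. It lay within −0.4 and 0.4 for 131 of the 235 genes (55.7%), against 45.0% of the genes tested with at least 5 CPM in the control. It lay within −0.2 and 0.2, the limit of the rule for T4, for 8 (3.40%), against 7.82% of those genes. For the 104 members with an interval not within −0.4 and 0.4, a change after T4 as large as the limit set for the mixture was inside the interval or at its edge. Scaled by TMM, the median difference of the 235 genes after T4 was 0.03 in place of −0.01.

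Between the exposures, 201 of the 235 genes were lower after the mixture than after T4 in edgeR's quasi-likelihood test, where 19.9% of the genes tested were. The difference follows from the rule and is given as a description. The count ran from 173 to 200 when 1 sample was left out, where 4519 to 5383 of all genes tested were lower. Every T4 sample lay above every mixture sample in 183 of the genes (21.9% of all 20971 genes). In 37, 3 of the 4 T4 samples did (8.25%), and in 15 fewer did (69.9%). The T4 samples were not individually limited by the rule, and each of them fell below the lowest control sample in 44 to 71 of the genes. The same count was not made over all genes, so it only describes the 235. The gene with the widest spread after T4 had 11.4, 11.3, 5.70 and 4.70 CPM in samples 9 to 12, against 5.55 to 8.46 CPM in the control, so that a difference of 0.65 in set 1 and of −0.37 in set 2 averaged to 0.14. The differences after T4 were under 0.2 in either direction within each set for 127 of the 235 genes (33.5% of all 20971). The rule limited the average of these differences over the sets, which raises this count, so it only describes the 235. In 5 genes the differences of the sets were past 0.2 in opposite directions (1.87%).

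The median difference of the 235 genes was −0.41 in set 1 (from −0.93 to −0.10) and −0.62 in set 2 (from −1.50 to −0.22), and over all 20971 genes it was −0.03 in each. Since the rule placed all mixture samples below all control samples, the difference had to be below 0 in both sets in all 235 genes, and nothing is read from this (38% of all 20971 genes). The sizes within each set are likewise described without a test. A difference of −0.4 or lower was reached by 126 genes in set 1 (4.15% of all 20971) and by 217 in set 2 (8.24%), and by 108 in both (1.96%). The difference was lower in set 2 than in set 1 in 197 genes (50.5% of all 20971). Both mixture samples of set 2 lay below both of set 1 in 128 genes (27.4%), above them in 15 (23.6%), and overlapped with them in 92.

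**Figure D5:**
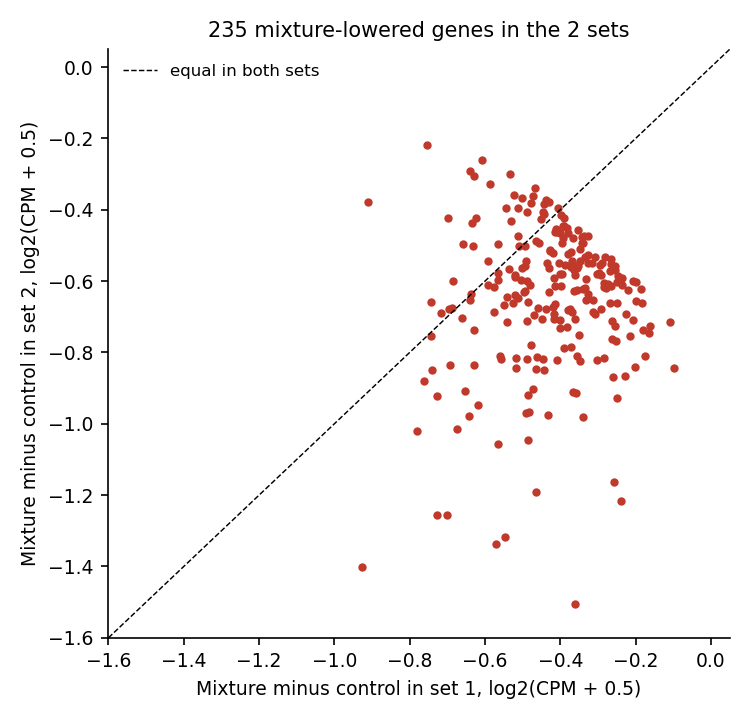
Difference after the mixture in set 1 and in set 2 for each of the 235 genes, on the log2(CPM + 0.5) scale, with a dashed line where both are equal. The rule places every point below 0 on both axes, and 197 of the 235 lie below the line.

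Whether the fall differed between the sets was tested for each gene by the interaction of mixture and set in edgeR. None of the 235 genes passed (0 of 235 with an adjusted p-value under 0.05, where 0% of the 27141 genes tested did), and the smallest adjusted p-value among them was 0.527 from edgeR's quasi-likelihood test. DESeq2 gave 0 as well (0.00515% of its genes tested). At an unadjusted p-value under 0.05, edgeR gave 53 of the 235 (8.11% of all genes tested), and 52 of them had the larger fall in set 2 (4.44%). DESeq2 gave 22 (2.8%). The rule did not use the sets, but it used the mixture and control values from which the interaction is built. These counts therefore only describe the 235, and the count of 0 is shared with all genes tested in edgeR. Genes with a strong fall in 1 set were more frequent in set 2 among all genes, and the part of this in the 52 was not tested. The median interaction of the 235 genes was −0.23 on the log2 scale.

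Single genes differed in both directions. In the gene with the largest excess of set 2, control samples 1 to 4 had 4.06, 4.69, 8.94 and 5.64 CPM, mixture samples 5 to 8 had 3.74, 2.87, 2.23 and 2.14 CPM, and T4 samples 9 to 12 had 4.69, 3.77, 7.43 and 6.03 CPM. Control and T4 levels were higher in set 2 and the mixture levels were lower there, which gave differences of −0.36 and −1.50 after the mixture. In the gene with the largest excess of set 1, control samples had 25.9, 26.6, 25.4 and 25.003 CPM, mixture samples 15.2, 15.6, 23.6 and 19.8 CPM, and T4 samples 18.9, 20.3, 21.9 and 29.4 CPM. Its T4 samples 9, 10 and 11 lay below every control sample and overlapped with the mixture samples, and its T4 sample 12 lay above every control sample.

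The sets were also compared by a difference averaged over the 3 groups, the mixture samples included. A PCA of all genes, these included, told the sets apart, so the p-values below are not independent of that division. In a fit of exposure and set together, 16 of the 235 genes differed between the sets (7 higher and 9 lower in set 2, adjusted p-value under 0.05 in edgeR's quasi-likelihood test), which is 6.81%, where 13.4% of the genes tested did. Leaving out mixture sample 5, 6, 7 or 8 left 4, 4, 5 or 4 of the 235 lower in set 2 and 10, 6, 9 or 7 higher. Among all genes, 1354 to 1540 were lower and 1477 to 1687 higher in these fits, against 1883 lower and 1742 higher in the full fit. Leaving out 1 control or T4 sample left 5 to 9 of the 235 lower (1476 to 1785 of all genes). The rule required that control and mixture samples did not overlap, which disfavours genes with a large difference between the sets. In the T4 samples, which carried no such condition, both samples of set 2 lay above both of set 1 in 60 genes (23.9% of all 20971) and below them in 48 (21.9%). These were 25.5% and 20.4% of the 235, near the shares among all genes.

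The same rule was then applied within a single set, and the genes it chose were read in the other set. The samples of the other set did not enter that choice. However, the rule, its limits and the division into sets were fixed with earlier results of all 12 samples known. The values below are therefore a description. Within set 1 the rule gave 277 genes. In set 2 these had a median difference after the mixture of −0.43 (quartiles −0.67 and −0.20), against −0.03 for the 21051 genes with at least 5 CPM in the control samples of set 1. Of the 277 genes, 249 were below the control in set 2 (89.9%, against 54.8% of the 21051), and 145 reached −0.4 (52.3%, against 8.08%). Both mixture samples of set 2 lay below both control samples in 203 of them (73.3%, against 33.0%).

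In the opposite direction, the rule gave 563 genes within set 2, and their median difference in set 1 was −0.24 (quartiles −0.37 and −0.12), against −0.03 for 20825 genes. Of the 563 genes, 517 were below the control in set 1 (91.8%, against 57.2%), and 116 reached −0.4 (20.6%, against 3.95%). Both mixture samples of set 1 lay below both control samples in 367 (65.2%, against 26.2%). Genes chosen in either set lay lower after the mixture in the other set than the genes at large, which were not matched to them in level. This is no independent test of the rule. The control tables of both sets carry the extra trimming step in their names, and its part here was not tested. The median difference of the chosen genes after T4 in the other set was 0.07 and 0.04, against −0.02 and −0.04 for the genes at large. The 277 genes included 93 of the 235 (39.6%), which is 33.6% of the 277, and the 563 included 156 (66.4%), which is 27.7% of the 563. The labels do not say whether the 2 samples of a group within a set came from separate rearing, so the spread between them may be partly technical.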

How the data were processed

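The deposited values are counts, the whole numbers of reads that the authors assigned to each gene without normalization. Per the authors' methods and processing notes, 1 copy of each set of duplicated reads was kept, reads were trimmed, checked with FastQC (0.11.2) and selected for a length of 64 bases with cutadapt (1.15), aligned with Bowtie2 (2.2.4) against genome release 9.2, retained if their position was unique, and counted with HTSeq (0.9.1). Near-identical L and S copies lose reads in such mapping, and the strand setting is not given in the sources used here, so overlapping genes are uncertain. Removing duplicates can lower the values of highly expressed genes most. The authors removed component 2 of the PCA after counting, so the counts still hold it. The 5 totals that name no gene (38.3% to 42.2% of reads) were left out.

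CPM used the sum of gene rows, and the rule for choosing genes is given in the text. DEGs were called with edgeR (4.0.16, R 4.3.3): quasi-likelihood test, TMM, filterByExpr with a minimum count of 10, 3 groups in 1 fit of 12 samples with 9 residual degrees of freedom, and Benjamini-Hochberg adjustment over all genes tested. The sets were tested with group and set in the fit, or with their interaction. DESeq2 (1.42.0), RLE factors, other filters, fits of only the groups compared, the removal of component 2 before DESeq2 and the loss of each sample were alternatives. The edgeR fits were also run on simulated counts with known changes. For the mixture, no difference between the sets was simulated, unlike in these data, so the simulation does not show how that fit performs here. Figures used matplotlib (3.10.9). Intervals cover the spread between these samples only. Of the genes, 2 were named, those with the lowest mixture difference and the highest control mean, and the others shown were chosen after their values were seen. The genes, the division into sets and the tests were chosen with earlier results of these data known.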

Additional observations from a re-analysis of the deposited data

How the results depend on the processing

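Near its limits the number of genes followed the rule: 116 with a mixture difference of at most −0.5, 123 with a T4 difference under 0.1, 563 within set 2 alone, and 196 to 332 when 1 sample was left out. The other alternatives to the rule stayed within 1.5 times of 235 in number, but not all held the same genes. Of the 235, 157 (66.8%) stayed with TMM and 165 (70.2%) with the size factors of DESeq2. With 2 added to CPM in place of 0.5, 172 (73.2%) stayed. The genes called lower after the mixture, 55 in the text, were 129 at an adjusted p-value under 0.1, 28 without a filter on low counts, 148 with the set as a factor, 155 with DESeq2, 208 with component 2 removed before DESeq2, and 0 (of 235, with 234 at an unadjusted p-value under 0.05) when only control and mixture samples were fitted with edgeR. Leaving out 1 sample gave 0 to 42, where 2 to 85 of all genes tested were called lower. The fit of only control and mixture samples called 0 of all 26640 genes tested, and its unadjusted p-values were not counted over all genes. The fit without a filter called 63 of all 38850 genes lower. At an adjusted p-value under 0.1, no count over all genes was made. For T4, the count of 0 became 3 at an adjusted p-value under 0.1, 1 with the set as a factor, 2 with component 2 removed, and 0 to 1 without 1 sample. Over all genes, T4 gave 8379 of 27141 with the set as a factor and 8856 of 29042 with component 2 removed. Without 1 sample it gave 5210 to 6491. The genes that differed between the sets, 16 in the text, were 29 at an adjusted p-value under 0.1 and 10 to 15 without 1 sample (2831 to 3445 of all genes). The counts for mixture against T4 and for the interaction did not move by over 1.5 times under the alternatives run. The medians read in the other set ran from −0.45 to −0.34 in set 2 and from −0.24 to −0.20 in set 1. The log2 fold change of gene11819 after T4 changed sign, to 0.0029 without a filter and within −0.12 to 0.15 without 1 sample. After the mixture gene11819 stayed between −1.34 and −1.14, and was not called in 6 of 19 alternatives (adjusted p from 2.35e-06 to 0.0897, edgeR or DESeq2). The lowest came from DESeq2 with component 2 removed. That fit does not count the removal as a fitted term, so all its p-values may be too small. The causes of the differences between alternatives were not tested. No paired analysis was possible because the groups share no replicate numbers in the labels, and the fit with the set as a factor, given above, blocks by set only. Groups of 4 pools of 2 brains limit every interval given.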
